A study of Macaca fascicularis with 21 samples.

Results

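GATA3, GATA4 and GATA6 are members of the GATA family of transcription factors, and they were taken as the 3 genes of these names among the 30792 genes of a single-cell count table. The table holds 1453 cells of 21 cynomolgus monkey (Macaca fascicularis) embryos that were grown in a dish from the blastocyst stage, with the aim stated in the title of the study of carrying them beyond gastrulation. Each blastocyst, freed of its zona pellucida, attached to Matrigel (a basement membrane gel) and received medium with rising serum, per the labels' protocols. The embryonic disc was then cut out, the extra-embryonic cells around it were removed, and cells were picked one by one for sequencing from the 3' end of the mRNA. The groups are the labelled days, with 2 embryos at day 11, 5 at day 12, 3 at day 13, 4 at day 14, 4 at day 16 and 3 at day 17. All embryos shared this culture, none received a treatment or carried a genetic change per the labels, and the embryos of a day are its replicates. The labels give the day as a culture stage for 5 embryos (1 of day 12, 2 of day 13 and 2 of the 3 of day 17) and as a developmental stage for the other 16. They do not say how these differ, and both were read as the day. Because cells around the disc were cut away by hand, the cell types of an embryo are those that the dissection left.

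Cells carried the authors' 12 annotations, which were read here as 7 families. These are trophoblast and its derivatives (TE, 380 cells), amnion (AM, 82 cells in E-AM, L-AM1 and L-AM2) and visceral and yolk sac endoderm (VE/YE, 101 cells). The others are extra-embryonic mesenchyme (EXMC, 485 cells), gastrulating cells (Gast, 83 cells in E-Gast, L-Gast1 and L-Gast2), primordial germ cells (PGC, 18 cells) and epiblast (EPI, 304 cells in postE-EPI and postL-EPI). Marker genes were set against these names: 6 of 6 VE/YE markers, 5 of 5 PGC markers, 5 of 6 TE markers, 5 of 6 EXMC markers and 4 of 5 AM markers were highest in their own family. The labels EPI and Gast held less well, with 3 of 6 and 1 of 5 markers highest in their own family. Cells had 3376 to 483669 counts, with a median of 61090.0, and embryos 2540816 to 11857191. The sources used here do not say how the annotation was made, and annotations of this kind rest on expression in the cells themselves. What the annotation took from these 3 genes cannot be told apart from a difference between families. The tests between families thus give the size of a difference within embryos against how far it varied among embryos. They are no independent evidence of cell identity.

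GATA factors are zinc finger proteins that bind the DNA sequence after which they are named. In early mammalian embryos GATA3, together with its relative GATA2, is known from the trophoblast, where it acts with TFAP2 factors, and it is also made in the amnion. GATA6 and GATA4 are known from the primitive endoderm and its derivatives, where GATA6 acts first, and from lateral mesoderm and the heart.

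GATA3 was counted 22120 times, in 899 of 1453 cells (61.9%). TE cells gave 28.7% of all counts in the table and 80.8% of the GATA3 counts. Counts were summed over the cells of a family in each embryo (at least 5 cells) and expressed as CPM, the count scaled by the library's total and its TMM factor, which gave 73 sums. In 16 TE sums GATA3 ran from 170.7 to 957 CPM, with a median of 355 and a mean of 413 ± 198 (SD, n = 16). The 6 AM sums had 286 and 176 CPM at day 12 and 71.5, 179, 189 and 273 CPM at day 16, a mean of 196 ± 77.8 (SD, n = 6). Over all embryos and days, the ranges of TE and AM thus overlapped between 170.7 and 286 CPM. GATA3 followed at 90.1 ± 81.2 CPM in VE/YE (SD, n = 9), 48.6 ± 35.1 in PGC (n = 3), 46.4 ± 31.7 in EXMC (n = 19), 24.8 ± 17.3 in Gast (n = 6) and 13.9 ± 10.6 in EPI (n = 14). Across this order the means fall from TE to EPI, but each family overlaps with the next one.

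**Figure D1:**
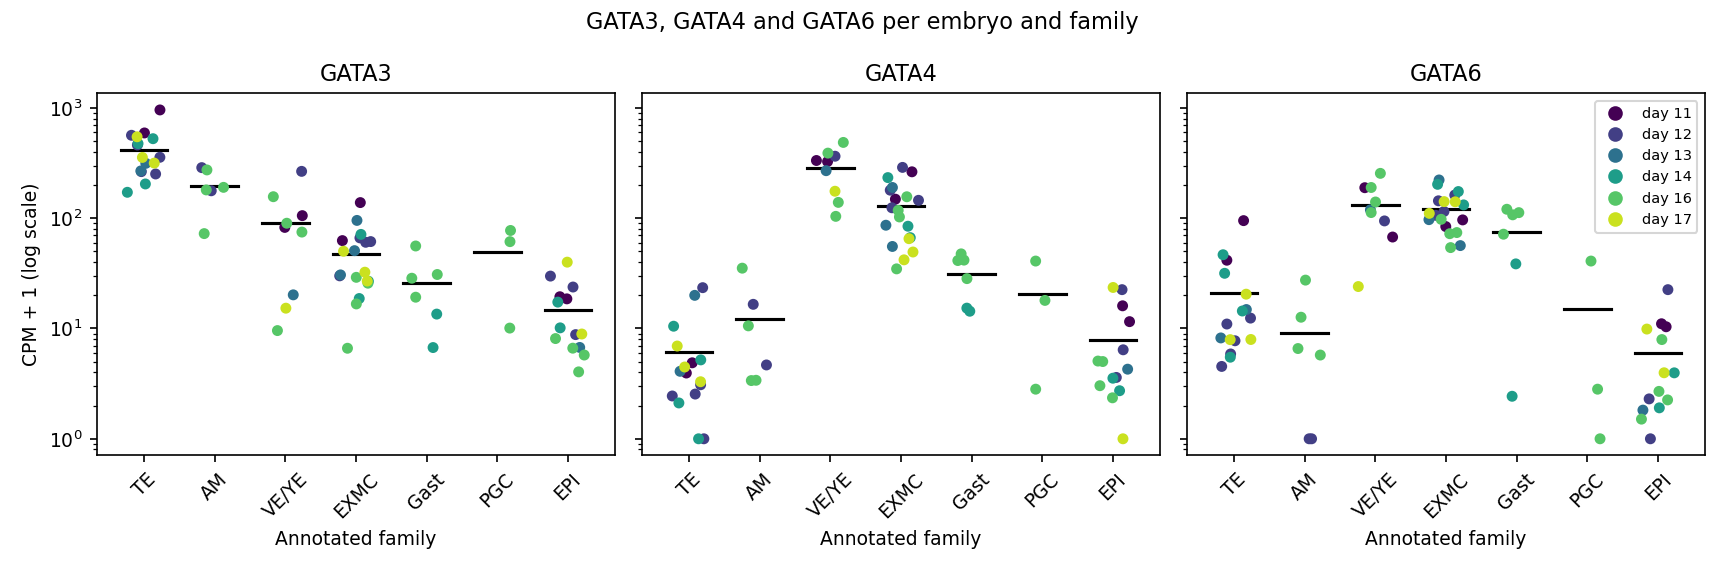
Each point is the sum of one family in one embryo, as CPM + 1 on a log scale, coloured by labelled day, and black bars are means. GATA3 has its highest sums in TE (170.7 to 957 CPM) and AM (71.5 to 286 CPM), while GATA4 and GATA6 have theirs in VE/YE and EXMC.

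Against EPI of the same embryos, GATA3 was 33.9-fold higher in TE (log2 difference 5.08 ± 0.40, SE, adjusted p = 1.25e-14, edgeR quasi-likelihood test with Benjamini-Hochberg adjustment) and 18.2-fold higher in AM (4.18 ± 0.47, adjusted p = 1.14e-08). It was also higher in VE/YE (2.89 ± 0.43, adjusted p = 1.2e-06) and EXMC (1.92 ± 0.36, adjusted p = 4.98e-05), and its call in EXMC was lost within days 16 and 17 (1.51, adjusted p = 0.0585). Whether VE/YE exceeded EXMC depended on the setting. The difference of 0.97 ± 0.40 did not pass (adjusted p = 0.101), nor in any of 20 fits without 1 embryo, but 5 of 9 other settings called it. These were DESeq2 (1.16, adjusted p = 0.0142), its size factors within edgeR (1.17, adjusted p = 0.0428), no filter on low counts (0.91, adjusted p = 0.0168), at least 3 cells per sum (0.93, adjusted p = 0.0472) and days 16 and 17 alone (1.76, adjusted p = 0.0394). In the comparison with EPI, 35.6% of 20162 genes were called for TE, 4.83% for AM, 21.4% for VE/YE and 26.0% for EXMC. A call in TE is thus common among genes and one in AM is not. GATA3 in TE exceeded that in EXMC (3.17 ± 0.32, adjusted p = 5.29e-11, with 23.9% of genes called) and in VE/YE (2.20 ± 0.46, adjusted p = 3.22e-04, with 17.6% called). The call against VE/YE was lost with at least 10 cells per sum (1.42, adjusted p = 0.234) and within days 16 and 17 (adjusted p = 0.166). TE and AM did not differ by this test, with a log2 difference of 0.90 ± 0.51, a 95% interval from -0.10 to 1.90 and an adjusted p of 0.262 (13.7% of genes called). The interval leaves room for TE levels up to 1.90 higher on the log2 scale, so a like level in both is not shown. Only 2 embryos, both of day 12, held sums of TE and AM, and there AM had 49.6% and 50.8% of the TE level of GATA3. The other AM sums were of day 16, which had no TE sum, so the test rests largely on comparisons through other families. GATA3 in Gast (1.49 ± 0.49, adjusted p = 0.122) and PGC (2.10 ± 0.67, adjusted p = 0.0745) did not pass against EPI, where 1.49% and 3.03% of genes were called. DESeq2 called both (1.46, adjusted p = 0.0412, and 2.26, adjusted p = 0.00743), as did edgeR with no filter on low counts (1.45, adjusted p = 0.00258, and 1.99, adjusted p = 0.00211). Gast also passed within days 16 and 17 (2.20, adjusted p = 0.0463), and PGC without day 17 replicate 1 (2.17, adjusted p = 0.0464).

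GATA3 in families outside TE and AM was set against markers of trophoblast, since extra-embryonic cells were cut away at dissection. The 6 markers were CGA (a hormone subunit), KRT7 (a keratin), the factors GATA2, TFAP2C and GCM1, and CCR7 (a chemokine receptor). Their summed level was 778 to 20076 CPM in TE, 53.6 to 3782 in EXMC, 31.0 to 1779 in VE/YE and 38.6 to 3242 in EPI. By edgeR, none of the 6 was called in EXMC against EPI, with 3 at an unadjusted p under 0.05, and in VE/YE 1 was called, as lower. In 11 embryos of days 11 to 14, GATA3 in EXMC stood at a median 13.1% of the TE level of the same embryo (3.74 to 41.2%), and the 6 markers at medians from 2.19% to 10.9%. The ranges overlapped: over these embryos the highest value of a marker ran from 26.1% (TFAP2C) to 53.7% (KRT7), with CGA at up to 39.7%. In 3 embryos VE/YE had 13.8% of the TE level of GATA3 (10.9 to 74.5%), with markers at 1.80% to 8.39%. EPI, in 8 embryos, had 2.45% of the TE level of GATA3 (1.70 to 6.40%), within the markers' 1.59% (CCR7) to 26.2% (KRT7). Of the later days only day 17 had TE sums, and there GATA3 did not stand above all markers. In 3 embryos EXMC had 9.00% of the TE level of GATA3 (7.32 to 9.97%), below CGA (209%), GATA2 (26.0%) and KRT7 (18.8%) and above TFAP2C (6.58%) and GCM1 (1.79%). In the 1 embryo with VE/YE it had 4.03%, with CGA at 104%, TFAP2C at 114% and GATA2 at 5.71%. The part of trophoblast RNA in the GATA3 counts of these families was not tested.

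**Figure D2:**
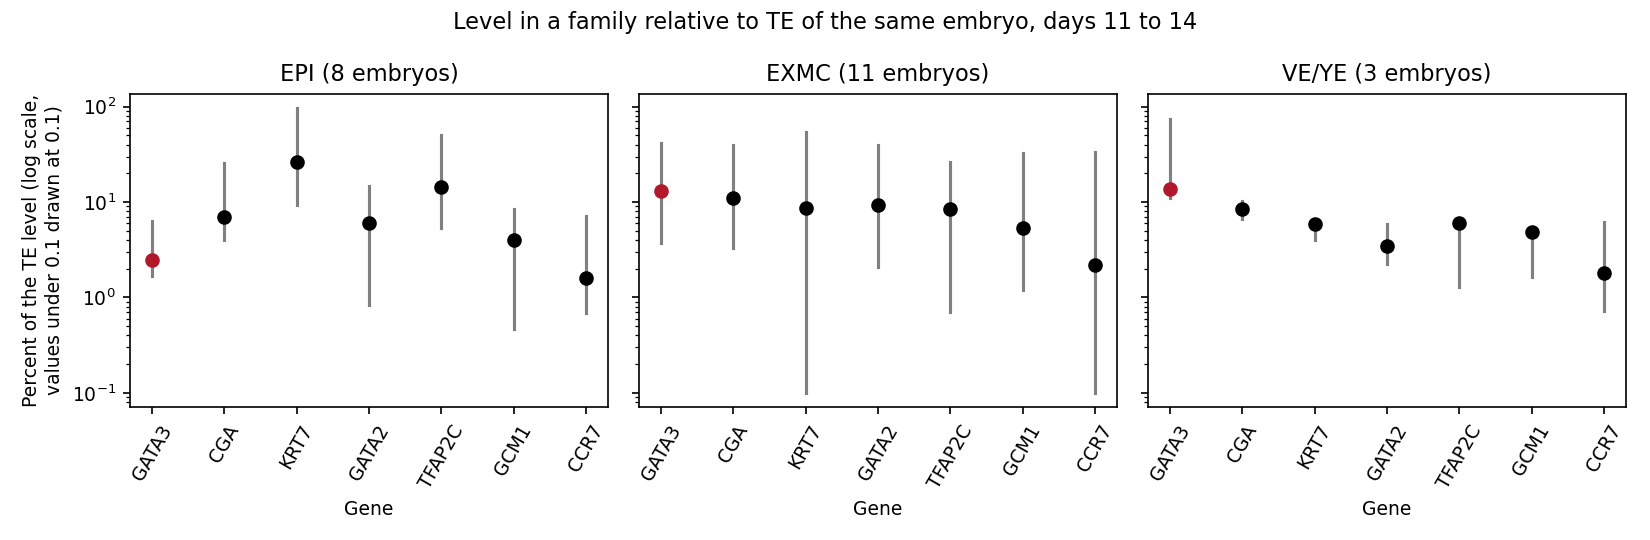
Points are medians over embryos of the level in EPI, EXMC or VE/YE as a percent of TE in the same embryo at days 11 to 14 (log scale), and lines run from the lowest to the highest embryo. GATA3 (red) lies at 2.45% in EPI and at 13.1% and 13.8% in EXMC and VE/YE, where each trophoblast marker has a lower median. In EXMC the lines of GATA3 and of the markers overlap.

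Among late amnion cells, GATA3 was read separately in L-AM1 and L-AM2 (sums of at least 3 cells). At day 16, L-AM2 had 142, 219, 250 and 556 CPM in replicates 1 to 4, and L-AM1 had 46.0, 136 and 27.4 CPM in replicates 1, 3 and 4. Within each of replicates 1, 3 and 4, L-AM2 was above L-AM1. Across embryos the ranges nearly touched (142 and 136 CPM). With TMM factors computed over sums of all days they overlapped, with L-AM1 of replicate 3 at 141 CPM and L-AM2 of replicate 1 at 134 CPM. How many of all genes show such an order was not counted. The difference of 2.30 ± 0.75 on the log2 scale did not pass (edgeR adjusted p = 0.104, with 0.951% of genes called), while DESeq2 called it at 2.44 (adjusted p = 0.0173). Against postL-EPI, whose day 16 sums had 2.99 to 7.38 CPM of GATA3, both were higher: L-AM2 by 5.38 ± 0.65 (adjusted p = 2.49e-08, 7.52% of genes called) and L-AM1 by 3.09 ± 0.67 (adjusted p = 0.0396, 0.0652% called). The call for L-AM1 rests on few embryos: it was lost when any one of day 16 replicates 1 to 4 or day 17 replicate 2 was left out (differences of 2.44 to 3.39), and DESeq2 made it (3.27, adjusted p = 3.52e-04). The markers of the epiblast, at 1775 to 1893 CPM summed in L-AM1 and 346 to 821 in L-AM2, moved opposite to GATA3. Amnion markers summed to 246 to 411 CPM in L-AM1 and 976 to 1541 in L-AM2, and trophoblast markers to 97.4 to 127 and 91.5 to 223, with CCR7 at 0. Their part in the result was not tested. The earlier E-AM cells had 155 ± 88.6 CPM (SD, n = 5, TMM factors over sums of all days), and 32 of 33 of them had a GATA3 count.

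GATA3 is one of several factors that were higher in TE and AM. Of 10 other trophoblast and amnion factors, 8 rose and 1 fell in TE against EPI, with a median log2 difference of 2.42 beside -0.13 for all genes tested. The largest rises were those of TFAP2A (4.77), DLX5 (4.47) and GATA2 (4.30). In AM against EPI 5 of 10 rose and none fell, with a median of 2.28 beside -0.22, led by ISL1 (6.66), a homeodomain factor, DLX5 (4.63) and TFAP2A (4.32). GATA2 set TE and AM apart where GATA3 did not pass: it was 3.79 ± 0.76 higher in TE (adjusted p = 3.84e-04).

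GATA4 was counted 7508 times, in 606 cells (41.7%). VE/YE cells gave 5.64% of all counts and 29.7% of the GATA4 counts, and EXMC cells gave 59.7%. Its level was highest in VE/YE, from 102.9 to 485 CPM with a median of 325 and a mean of 286 ± 126 (SD, n = 9). EXMC followed with 33.7 to 288 CPM, a median of 117 and a mean of 127 ± 75.6 (n = 19). The ranges of these families overlapped, and the others had lower means. Those of Gast (13.3 to 46.5 CPM), PGC (1.82 to 39.9) and AM (2.37 to 34.2) reached into the range of EXMC. Those of EPI (0 to 22.5) and TE (0 to 22.4) lay below it. EXMC did not pass against Gast (1.62 ± 0.62, edgeR adjusted p = 0.119, with 5.21% of genes called). Against EPI, GATA4 was 45.2-fold higher in VE/YE (5.50 ± 0.55, edgeR adjusted p = 8.74e-11) and 20.9-fold higher in EXMC (4.38 ± 0.49, adjusted p = 5.33e-10). VE/YE exceeded EXMC by 1.11 ± 0.46 on the log2 scale, which did not pass (adjusted p = 0.0944, with 14.8% of genes called), although DESeq2 called it (1.29, adjusted p = 0.0357). In TE and AM the gene did not differ from EPI by this test (-0.50 ± 0.55, adjusted p = 0.512, and 0.90, adjusted p = 0.468), nor did GATA6 in AM (1.03, adjusted p = 0.492).

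GATA6 was counted 8918 times, in 725 cells (49.9%), and EXMC cells gave 67.0% of these counts, VE/YE cells 13.7% and TE cells 10.5%. VE/YE sums had 23.0 to 254 CPM, with a median of 118 and a mean of 131 ± 70.3 (SD, n = 9). EXMC sums had 53.1 to 221 CPM, with a median of 110 and a mean of 119 ± 46.9 (n = 19). These families could not be ordered for GATA6: the means put VE/YE first, while the fit within embryos put EXMC first (VE/YE minus EXMC -0.49 ± 0.58, adjusted p = 0.636). Gast had 74.4 ± 47.1 CPM (n = 6), TE 20.0 ± 23.6 (n = 16), PGC 13.9 ± 22.5 (n = 3), AM 8.07 ± 9.98 (n = 6) and EPI 4.94 ± 5.96 (n = 14). Against EPI, GATA6 was 36.9-fold higher in EXMC (5.21 ± 0.57, adjusted p = 5.23e-10) and 26.4-fold higher in VE/YE (4.72 ± 0.63, adjusted p = 1.34e-07). Unlike GATA4, it was also called in TE against EPI (2.43 ± 0.56, adjusted p = 5.78e-04), though not within days 16 and 17 (1.51, adjusted p = 0.282). In TE the day 11 sums had 40.6 and 94.0 CPM, day 14 replicate 2 had 45.6 CPM, and the median over 16 sums was 10.7.

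The families that were high in GATA3 were low in GATA4 and GATA6, except for VE/YE and EXMC, which held all 3. TE had less GATA4 than VE/YE (-6.00 ± 0.60, adjusted p = 9.94e-11) and EXMC (-4.88 ± 0.49, adjusted p = 3.18e-11), and less GATA6 than both (-2.30 ± 0.63, adjusted p = 0.0068, and -2.78 ± 0.49, adjusted p = 1.37e-05). The call for GATA6 against VE/YE was lost with developmental stage labels alone (-2.01, adjusted p = 0.0550) and within days 11 to 14 (-1.71, adjusted p = 0.171). AM had less GATA6 than EXMC (-4.18, adjusted p = 3.68e-04, with 8.69% of genes called), which was lost with at least 10 cells per sum (-3.04, adjusted p = 0.119), and its day 12 sums had no GATA6 count. AM and Gast differed in opposite directions: GATA3 was higher in AM by 2.70 ± 0.54 (adjusted p = 0.00607) and GATA6 lower by 3.14 on the log2 scale (-3.14 ± 0.82, adjusted p = 0.0399), where 1.03% of genes were called. The call for GATA6 was lost in 6 of 20 fits without 1 embryo, those without day 12 replicate 1, 2 or 3 or day 16 replicate 2, 3 or 4 (-3.11 to -2.73), and that for GATA3 in none of the 20. With at least 10 cells per sum both calls were lost (GATA6 -1.99, adjusted p = 0.487, GATA3 2.72, adjusted p = 0.0925). That for GATA6 was also lost with developmental stage labels alone (-3.02, adjusted p = 0.107) and within days 11 to 14 (-7.93, adjusted p = 0.665), where AM sums had no GATA6 count. Over all 3 genes, 18 pairs of neighbours in the orders of levels were compared. edgeR called 0 of the 18, with 5 at an unadjusted p under 0.05, and of the 7 pairs run with DESeq2 it called 2.

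The genes around GATA4 and GATA6 were read from lists. Of 21 other endoderm genes, 20 rose in VE/YE against EPI and none fell (median 4.68 beside -0.25 for all genes), led by CER1 (8.83), a secreted inhibitor of Nodal, TTR (8.74), a transport protein, and APOA2 (7.63), an apolipoprotein. In EXMC 12 of the 21 rose and 2 fell, led by PDGFRA (6.21), a growth factor receptor, and the basement membrane genes COL4A2 (5.23) and NID2 (5.11). Of 16 mesoderm and heart factors 12 rose in EXMC against EPI and none fell (median 3.30 beside -0.05), led by FOXF1 (6.72), TBX4 (6.08) and TBX20 (5.38). ZFPM2, a cofactor that binds GATA4 and GATA6, was 3.54 ± 0.35 higher in EXMC than in EPI (adjusted p = 4.33e-11) and 3.29 lower in VE/YE than in EXMC on the log2 scale (-3.29 ± 0.42, adjusted p = 5.93e-08). ZFPM2 thus separated the GATA4 and GATA6 families where neither GATA gene passed the test. Markers of each family summed lower in the other family. The 6 VE/YE markers had 4643 to 20261 CPM in VE/YE and 7.02 to 2181 in EXMC. The 6 EXMC markers had 1158 to 23419 CPM in EXMC and 16.6 to 690 in VE/YE. They were not absent there: in EXMC of day 16, the VE/YE marker APOA1 had a mean of 926 CPM (n = 4, up to 1823). The part of such RNA in the GATA4 and GATA6 levels was not tested. ZFPM1, the relative of ZFPM2, was higher in both against EPI (3.81 in VE/YE and 3.93 in EXMC).

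In gastrulating cells, both GATA4 and GATA6 were above EPI. GATA6 had 1.43 and 37.5 CPM in the day 14 sums and 70.6, 119, 111 and 106 CPM in the day 16 sums of Gast. GATA4 had 14.3 and 13.3 CPM at day 14 and 27.3, 40.3, 46.5 and 40.7 CPM at day 16. For both genes each day 16 sum lay above each day 14 sum, which was not tested, nor counted over all genes. The day 14 sums held E-Gast cells and the day 16 sums L-Gast1 and L-Gast2 cells, so day and annotation cannot be told apart. Against EPI the log2 differences were 4.17 ± 0.71 for GATA6 (adjusted p = 2.84e-04) and 2.76 ± 0.61 for GATA4 (adjusted p = 0.0068), where 1.49% of genes were called. Both rest on the day 16 sums of L-Gast1 and L-Gast2 cells: within days 11 to 14 the differences were 1.98 (adjusted p = 0.960) and 1.52 (adjusted p = 0.968).

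Within the gastrulating cells of day 16, the 3 genes had more CPM in L-Gast2 than in L-Gast1, but no difference passed the test. GATA6 had 126, 144, 138 and 125 CPM in L-Gast2 of replicates 1 to 4, and 0, 36.3, 11.8 and 28.8 CPM in L-Gast1 of those embryos. GATA4 had 42.6, 53.2, 54.0 and 48.6 CPM in L-Gast2, and 7.27, 0, 17.7 and 7.20 CPM in L-Gast1. GATA3 had 30.4, 39.4, 65.9 and 29.2 CPM in L-Gast2, and 2.42, 0, 13.8 and 21.6 CPM in L-Gast1. For each gene the 4 L-Gast2 sums lay above the 4 L-Gast1 sums, with no overlap. How many of all genes separate in this way was not counted, so the separation is not shown to be particular to these genes. The log2 differences of 2.88 ± 0.96 for GATA6, 2.88 ± 0.96 for GATA4 and 2.44 ± 0.80 for GATA3 did not pass (edgeR adjusted p = 0.105, 0.101 and 0.0972, with 1.72% of genes called). All 3 had an unadjusted p under 0.05, as did 2513 of the 15346 genes tested. DESeq2 called 0 of 3 (adjusted p = 0.0933, 0.0720 and 0.0911). L-Gast1 sums held 3 or 4 cells and L-Gast2 sums 5 to 12, so the counts behind the lower side are few.

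**Figure D3:**
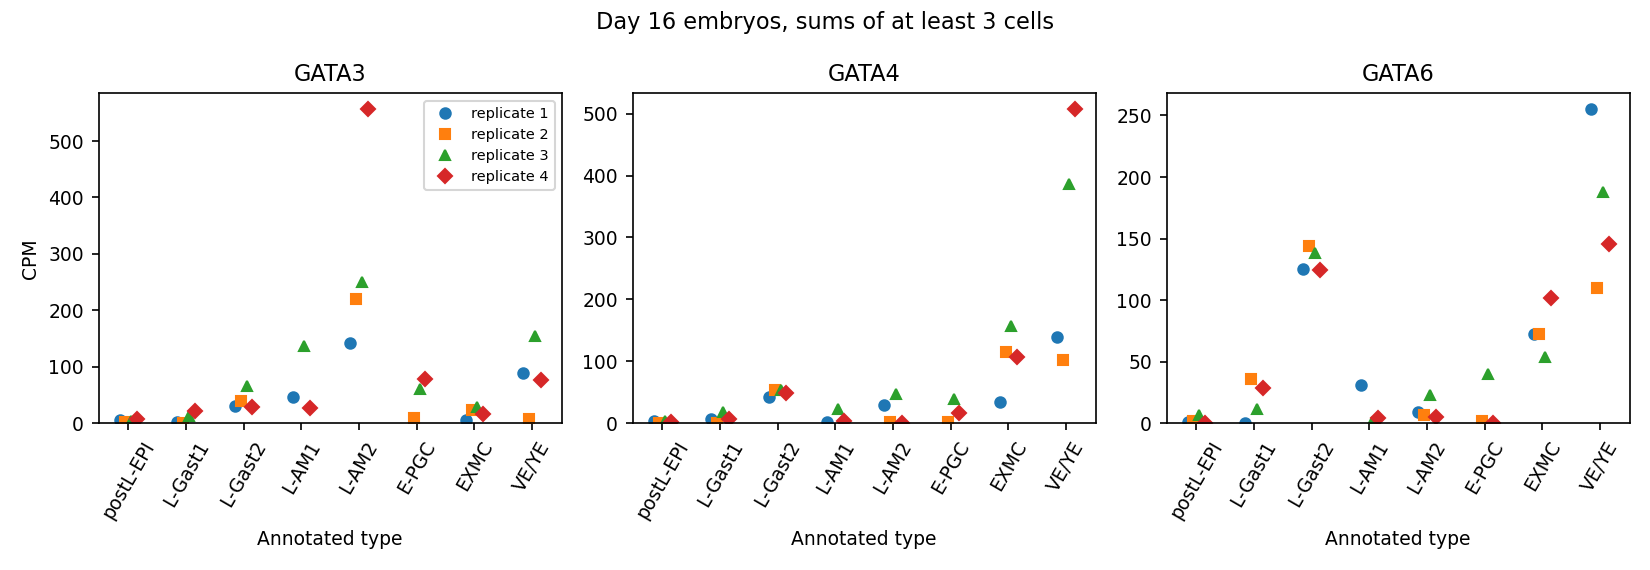
CPM of each gene in the annotated types of the 4 day 16 embryos, with one symbol per embryo. L-Gast2 lies above L-Gast1 in each embryo for all 3 genes (GATA6 125 to 144 against 0 to 36.3 CPM), but none of the 3 differences passed the test. L-AM2 has 142 to 556 CPM of GATA3.

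Against postL-EPI, L-Gast2 was higher in all 3 genes, where 3.13% of 15346 genes were called. Day 16 postL-EPI sums had 0.527 to 6.98 CPM of GATA6 and 1.33 to 4.04 CPM of GATA4. The log2 differences were 5.14 ± 0.88 for GATA6 (adjusted p = 1.2e-04), 3.57 ± 0.82 for GATA4 (adjusted p = 0.00508) and 2.61 ± 0.63 for GATA3 (adjusted p = 0.0081). Without day 16 replicate 2 the adjusted p was 0.0598 for GATA4 and 0.0632 for GATA3, and without replicate 3 it was 0.0713 for GATA3. GATA6 in L-Gast1 did not pass against postL-EPI (2.26, adjusted p = 0.455, with 0.0391% of genes called). Mesoderm factors moved alongside: of 12 tested, 7 rose in L-Gast2 against postL-EPI and none fell (median 3.75 beside -0.22), led by HAND1 (6.25) and FOXF1 (6.03). ZFPM2 rose in L-Gast2 against L-Gast1 (3.12 ± 0.61, adjusted p = 0.00152).

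Markers of other families were read beside L-Gast2. The 6 EXMC markers summed to 746 to 3924 CPM in L-Gast2 and 73.8 to 609 in L-Gast1, and 1 of 6 was called higher in L-Gast2. That gene, HAND1, is also among the mesoderm factors above. All 6 had an unadjusted p under 0.05, with a median log2 difference of 3.26, so they moved in the direction of GATA4 and GATA6. Their part in the result was not tested. VE/YE markers summed to 43.9 to 151 CPM in L-Gast2 and 58.8 to 381 in L-Gast1, with HNF4A at 0 in both, and edgeR called 0 of 6 with 1 at an unadjusted p under 0.05. TE markers summed to 28.3 to 217 CPM and 29.4 to 236, and edgeR called 0 of 5, with 0 at an unadjusted p under 0.05. In the 4 embryos of day 16, Gast had a median 137% of the EXMC level of GATA6 (98.9 to 209%) and 37.3% of that of GATA4 (29.9 to 81.0%). The EXMC genes COL1A1, COL3A1, POSTN, LUM and DCN stood at 4.75%, 3.27%, 1.45%, 4.02% and 4.31% there, while HAND1 stood at 389%. Relative to VE/YE, Gast had 67.6% of the GATA6 level and 15.9% of the GATA4 level, with APOA1 at 0.572%, TTR at 0.235% and HNF4A at 0. Set against either family, GATA4 and GATA6 stood above each of these matrix and endoderm genes, and HAND1 stood above both.

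Primordial germ cells were few. E-PGC had 9.25, 60.4 and 78.9 CPM of GATA3 in day 16 replicates 2 to 4, against 2.99 to 7.38 CPM in postL-EPI of that day. The difference of 2.43 on the log2 scale did not pass (edgeR adjusted p = 0.0781, with 0.893% of genes called). It was called by DESeq2 (2.69, adjusted p = 0.00836), with its size factors within edgeR (2.67, adjusted p = 0.0399) and without day 17 replicate 1 (2.85, adjusted p = 0.0243). GATA6 had 1.85, 39.9 and 0 CPM and GATA4 1.85, 39.9 and 17.5 CPM there, so replicate 3 was highest in both.

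Days were compared within the families that had enough sums, as a change in log2 level per day. In EXMC, GATA3 and GATA4 fell with day and GATA6 did not pass. GATA4 had 262 and 148 CPM at day 11, 123 to 288 at day 12, 54.4 to 189 at day 13, 65.6 to 232 at day 14, 33.7 to 155 at day 16 and 40.9, 48.4 and 64.2 at day 17. The fall came to 0.26 per day on the log2 scale (-0.26 ± 0.07, edgeR adjusted p = 0.0216, with 11.8% of genes called). It was lost without day 11 replicate 1 (adjusted p = 0.0608) and with developmental stage labels alone (-0.21, adjusted p = 0.105), which leaves 1 of the 3 day 17 embryos, and kept with the type of label as a covariate. GATA3 had 61.6 and 137.5 CPM at day 11 and 29.0 to 65.3 at day 12, against 5.62 to 28.1 at day 16 and 25.9 to 49.1 at day 17. Its slope was -0.27 ± 0.08 per day (adjusted p = 0.0304), and without day 11 replicate 2, which had the 137.5 CPM, it was -0.22 (adjusted p = 0.125). Without day 16 the slope of GATA3 was -0.21 (adjusted p = 0.147).

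GATA6 in EXMC had 83.0 and 95.5 CPM at day 11 and 140, 110 and 140 CPM at day 17, with 53.1 to 96.7 CPM at day 16 between them. Its slope of -0.03 ± 0.06 per day had a 95% interval from -0.15 to 0.09 (adjusted p = 0.797). The mean log2 difference of GATA4 to GATA6 within EXMC sums went from 1.14 at day 11 (n = 2) over 0.43, -0.14, -0.61 and 0.30 at days 12, 13, 14 and 16 to -1.34 at day 17 (n = 3). With counts from the 3' end, the size of this difference does not rank the genes, and its course over days is given as a description with no test. Between days 16 and 17 alone, none of the 3 genes was called in EXMC (edgeR 0 of 3, with 2 at an unadjusted p under 0.05 and DESeq2 at 0 of 3, and 2.92% of genes called). There GATA4 differed by -1.06 ± 0.46 (adjusted p = 0.287) and GATA6 by 0.75 ± 0.33 (adjusted p = 0.305). In EPI over these days GATA3 differed by 2.13 ± 0.93 (adjusted p = 0.239) and GATA6 by 1.11 (adjusted p = 0.723), with 3.23% of genes called and GATA4 too low to be tested. edgeR called 0 of these 2, with 1 at an unadjusted p under 0.05, and DESeq2 called 0. The day 17 sums of EPI had culture stage labels and those of day 16 developmental ones, so day and label type cannot be told apart. GATA3 had 38.9 and 7.91 CPM in the day 17 sums of EPI, and its difference ran from 0.59 to 2.85 without 1 embryo.

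Of the 6 trophoblast markers, 2 fell with day in EXMC and none rose, with 4 at an unadjusted p under 0.05. At days 11 to 14 most of their summed level was CGA. They summed to 1110 to 1286 CPM at day 11, 460 to 2535 at day 12, 475 to 3782 at day 13 and 613 to 1551 at day 14. At day 16 they summed to 53.6 to 213 CPM, with CCR7 at 0, and at day 17 to 110 to 271. CGA was among those that fell (-0.81 ± 0.18 per day, adjusted p = 0.0078), next to the fall of GATA3, while KRT7 had its highest daily mean at day 17 (42.2 CPM, against 10.2 at day 11). Endoderm markers summed to 230 to 510 CPM at day 11 and 7.02 to 66.9 at day 17, but to 109 to 2181 at day 16, and 1 of the 2 tested rose. Their part in the slopes of GATA3 and GATA4 was not tested.

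**Figure D4:**
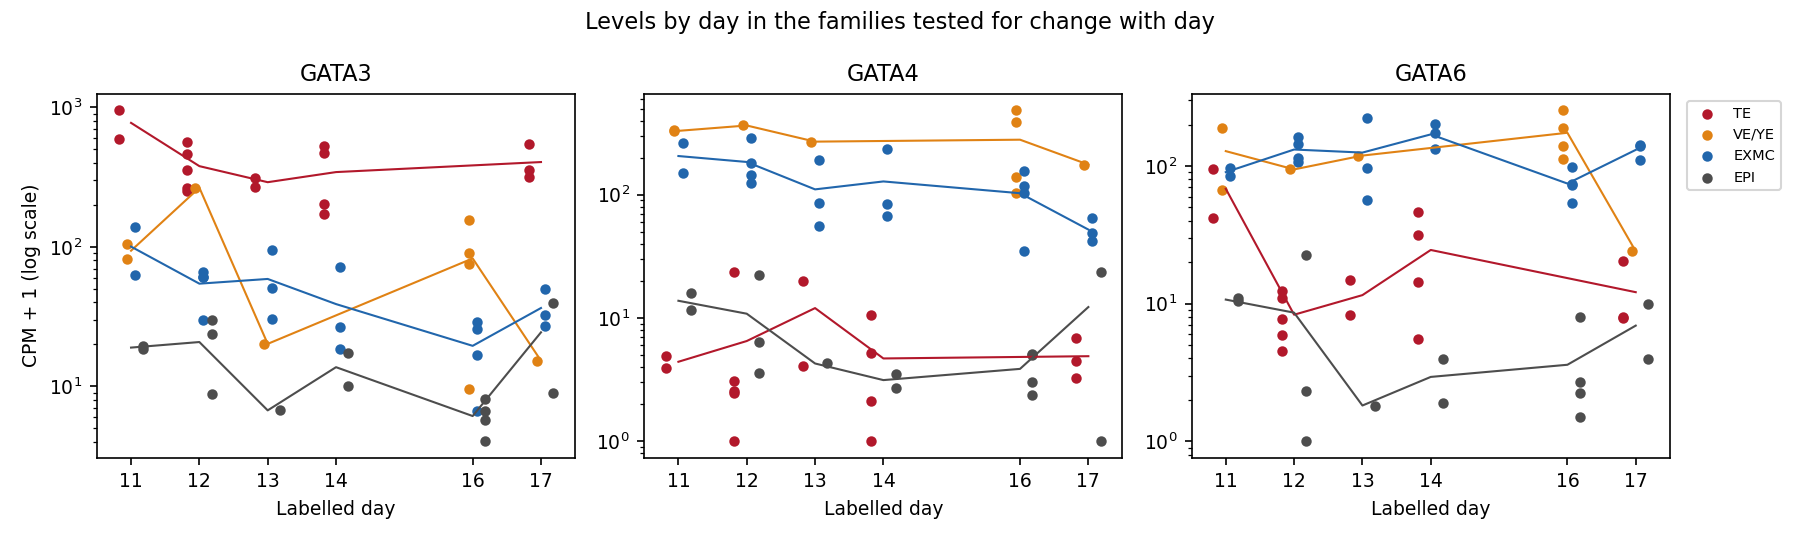
CPM + 1 (log scale) by labelled day in TE, VE/YE, EXMC and EPI, with one point per embryo and lines through the daily means. In EXMC (blue) the day 11 and day 17 means are 205 and 51.2 CPM for GATA4 and 89.2 and 130 CPM for GATA6. GATA3 in TE (red) has means of 774 and 405 CPM at these days.

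In TE, VE/YE and EPI no change of the 3 genes with day was called. edgeR called 0 of 3 in each, with 0 at an unadjusted p under 0.05 and DESeq2 at 0 of 3, where 14.9%, 0.145% and 3.81% of genes were called. GATA3 in TE had daily means of 774, 378, 290, 343 and 405 CPM at days 11, 12, 13, 14 and 17, with 591 and 957 CPM in the day 11 embryos. Its slope of -0.07 per day had a 95% interval from -0.21 to 0.06 (adjusted p = 0.497). GATA2, by contrast, fell in TE (-0.43 ± 0.12 per day), along with 3 more of 9 trophoblast factors, and 1 rose. In VE/YE, GATA4 had 325 and 332 CPM at day 11, 363 at day 12, 269 at day 13, 138, 103, 388 and 485 at day 16 and 174 at day 17. The spread among the 4 embryos of day 16 covered all other days. Slopes were compared between families by an F-test of day by family, which called none of the 3 (edgeR adjusted p = 0.843, 0.715 and 0.506 for GATA3, GATA4 and GATA6, 0 at an unadjusted p under 0.05, DESeq2 0 of 3, with 4.62% of genes called). So the falls in EXMC are not shown to differ from the slopes elsewhere.

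Over whole embryos GATA3 fell by 0.46 per day on the log2 scale (-0.46 ± 0.07, edgeR adjusted p = 1.56e-04, with 21.9% of genes called). It had 333 and 659 CPM at day 11, 33.2 to 57.3 at day 16 and 66.9, 129 and 32.4 at day 17. In such sums fewer cells of a type and less RNA per cell cannot be told apart. TE cells numbered 90, 128, 76, 62, 3 and 21 at days 11, 12, 13, 14, 16 and 17, and 5 of 6 TE markers fell. GATA4 (-0.11 ± 0.09, adjusted p = 0.415) and GATA6 (0.07 ± 0.10, adjusted p = 0.62) did not pass.

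The share of cells with at least 1 count was given for all cells and again after each cell was thinned to 20000 counts, which left out shallower cells. Exact 95% binomial intervals (Clopper-Pearson) cover counting error alone, and cells of 1 embryo are not independent. GATA3 was found in 365 of 380 TE cells (96.1%, interval 93.6 to 97.8%) and in 304 of 316 (96.2%) after thinning. In AM it was found in 71 of 82 cells (86.6%, interval 77.3 to 93.1%) and in 44 of 60 (73.3%, interval 60.3 to 83.9%) after thinning. In EPI, a family in which a low share would be background, it was found in 129 of 304 cells (42.4%) before and 20.6% (interval 15.8 to 26.2%) after thinning. Median totals per cell were 69067.5 in TE, 46013.5 in AM and 64267.0 in EPI. Within TE the median cell had 336 CPM and the highest 4029 CPM, so TE cells differed widely in GATA3.

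GATA4 was found in 95.0% of VE/YE, 67.0% of EXMC and 45.7% of L-Gast2 cells, and GATA6 in 78.2%, 82.1% and 82.9%. Whether the 2 genes, or all 3, share cells more often than such single shares give was not tested. Both GATA4 and GATA6 had a count in 77 of 101 VE/YE cells (76.2%) and in 280 of 485 EXMC cells (57.7%). In L-Gast2 both had a count in 14 of 35 cells (40.0%). Thinning left 48 of 69 (69.6%, interval 57.3 to 80.1%), 163 of 382 (42.7%, interval 37.7 to 47.8%) and 10 of 29 (34.5%, interval 17.9 to 54.3%). In TE both were found in 40 of 380 cells (10.5%), and in 6 of 316 (1.90%) after thinning, and in EPI in 15 of 304 (4.93%). Pooled over embryos and days, cells with 1 of the 2 genes leaned to GATA4 in VE/YE and to GATA6 in EXMC. In VE/YE, 19 of 101 cells had GATA4 without GATA6 and 2 had the reverse, while 45 of 485 EXMC cells had GATA4 without GATA6 and 118 had the reverse. The EXMC lean was not seen in the median embryo (GATA4 in 79.2% of cells, GATA6 in 80.0%) or at each day. GATA4 and GATA6 were found in 95.7% and 91.3% of EXMC cells at day 11 and in 86.7% and 82.2% at day 12. Both were found in 64.0% at day 16, against 73.1% and 91.5% at day 14 and 50.6% and 80.1% at day 17. At equal depth the pooled lean was smaller, with 12 against 5 of 69 VE/YE cells and 59 against 113 of 382 EXMC cells. The median cell had 53.8 CPM of GATA4 in EXMC and 265 in VE/YE, and 98.7 and 109 CPM of GATA6. GATA3 was present with them: all 3 genes had a count in 51 of 101 VE/YE cells (50.5%) and 150 of 485 EXMC cells (30.9%), and GATA3 without either in 1 and 10 cells. After thinning, all 3 were found in 31 of 69 VE/YE cells (44.9%) and 58 of 382 EXMC cells (15.2%). In TE, 195 of 380 cells (51.3%) had GATA3 without GATA4 and GATA6, and 72.8% of thinned cells did.

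**Figure D5:**
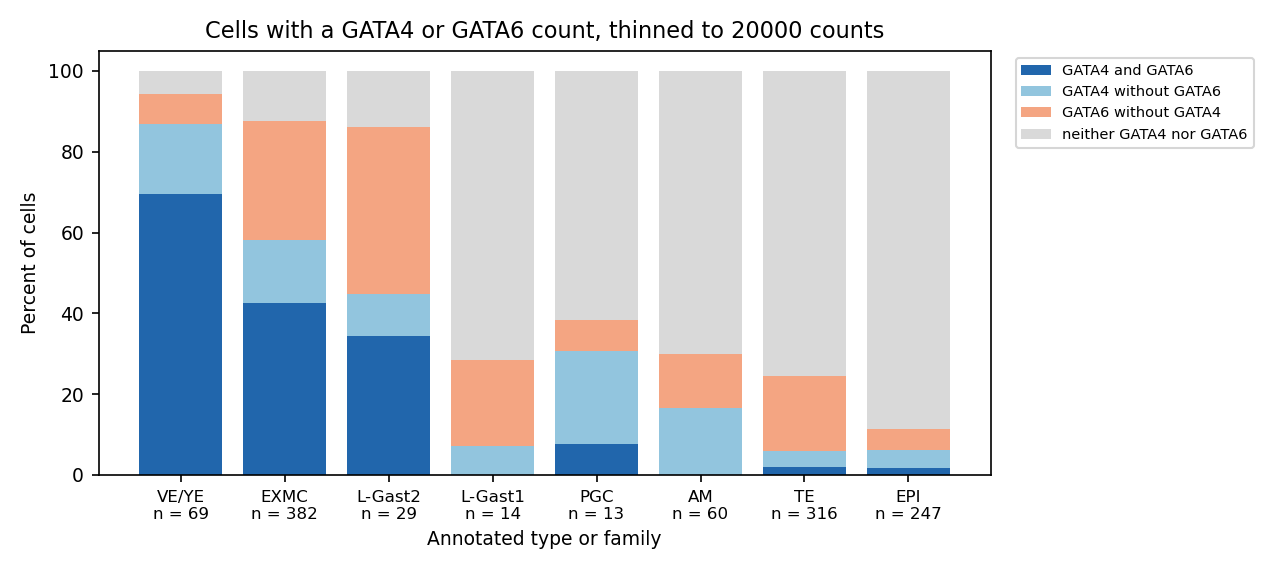
Bars split the cells of each type, thinned to 20000 counts, into those with counts of both GATA4 and GATA6, of one, or of neither (percent of the cells named under each bar). Both were found in 69.6% of VE/YE, 42.7% of EXMC and 34.5% of L-Gast2 cells, and in 1.90% of TE cells.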

How the data were processed

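The authors deposited 1 table of whole-number counts per gene and cell, aligned with STAR per the submitters' processing notes. The counting program, the handling of molecular tags and strand, and the genome build are each not given in the sources used here. A table of cell annotations that the authors deposited assigned families and days, and its day equalled the labelled day for 1453 of 1453 cells. No cells had identical values, and no doublet caller was run, as cells were picked singly per the labels' protocols. LOC identifiers of 3273 genes were given symbols from a RefSeq table (assembly T2T-MFA8v1.1), among them GATA2. In that table GATA3 overlaps the gene LOC102119422, which had 1312 counts, 5.60% of the counts of both, so some reads of the 2 genes may be shared. GATA6 overlaps a small nuclear RNA gene that has no row in the count table.

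Counts were summed per embryo and family (at least 5 cells, 73 sums of 1353 cells, totals 99053 to 8163009), per embryo and annotated type at days 16 and 17 (at least 3 cells, 42 sums), and per embryo (21). Sums were tested with edgeR 4.0.16 in R 4.3.3 (filterByExpr, TMM, robust glmQLFit, glmQLFTest). The embryo was a block in comparisons between families or types, and day entered as a number. P-values were adjusted over all genes tested, called under 0.05, and the SE is the absolute log2 difference over the square root of F. TMM factors were computed over each set of sums, and log2 values carried a pseudocount of 1 CPM where correlations were computed. Python 3.11.15, numpy 2.4.6, pandas 2.3.3, scipy 1.17.1 and matplotlib 3.10.9 were used for the rest. On simulated counts, the EXMC day test over 10728 genes recovered 5.05% of changes of 1 and 54.8% of changes of 2 (log2, over the range of days), with 5.08% of calls false. The test of TE against EPI over 16397 genes recovered 10.9% and 55.2%, with 3.33% false. Simulated counts had a common mean per gene, the dispersion trend and no differences between embryos. The simulated test of TE against EPI fitted TE and EPI sums only, while the reported test came from the fit of all families. Its shares thus need not hold for the reported test. Nothing says whether embryos shared parents. With the embryo as a block, p-values measure how far differences within embryos varied among these embryos, and without it they measure the spread between these embryos.

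Named genes were the 3 members, at most the 3 called genes with the largest change per list and comparison, and the 5 genes most like each member. The lists were GATA family and cofactors, trophoblast and amnion factors, trophoblast products, endoderm genes, mesoderm and heart factors, pluripotency factors, BMP response, and markers of each family. GATA2, TFAP2A, TFAP2C, ISL1, MSX2, CGA, KRT7, GCM1 and CCR7 stand in more than one list. So do SOX17, HAND1, TAL1, POU5F1, SOX2 and NANOG. All VE/YE markers (APOA1, APOA2, TTR, AFP, FOXA2 and HNF4A) are also endoderm genes of the list, so results of such lists are not independent. The members and lists were chosen with earlier results of these data known. Alternatives were DESeq2 1.42.0, its size factors within edgeR, no filter on low counts, other minimums of cells, leaving out each embryo, days or label types, and dropping or adding blocks.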

Additional observations from a re-analysis of the deposited data

Results flagged for a closer look

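In 33 groups of 4 or more embryos of 1 day, the highest and lowest value was set against the rest by Dixon's ratio, which chance passes in about 1 of 20 groups, and 2 groups held such a value. GATA3 in EXMC of day 12 replicate 5 was 29.0057 CPM, while the other 3 embryos of that day had 59.5 to 65.3 CPM, a gap of 0.84 of the range of the 4 values. GATA4 in TE of day 12 replicate 5 was 22.4449 CPM, while the other 4 had 0 to 2.09 CPM, a gap of 0.907 of the range of the 5 values. Both values come from 1 embryo, and the cause was not tested.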

How the results depend on the processing

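Over 702 values under other settings and 1172 values without 1 embryo, 575 and 1093 kept their direction and side of the threshold (or, for counts, stayed within 1.5 times), and 11 and 2 changed sign. No call changed in any setting or embryo run for GATA3 in TE, AM and VE/YE against EPI, nor for GATA4 and GATA6 in VE/YE and EXMC against EPI.

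Changes of sign were all between values that did not pass. Within days 11 to 14, GATA6 in AM minus EPI was -5.94, with no count in these AM sums, and GATA3 in Gast minus EPI -0.40. Within days 16 and 17 GATA4 in TE minus EPI was 0.26. GATA6 in VE/YE minus EXMC was 0.38 with at least 10 cells per sum, 0.15 without the embryo block and 0.60 within days 16 and 17. Without day 16, slopes were 0.0301 for GATA3 in EPI, 0.0426 for GATA6 in EXMC and -0.39 for GATA6 in VE/YE, and the last was -0.12 with at least 3 cells per sum. Without 1 embryo GATA6 in VE/YE ran from -0.0234 to 0.142.

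Calls were lost as follows. GATA4 in Gast minus EPI was 2.67 with at least 10 cells (adjusted p = 0.0602) and 1.52 within days 11 to 14, where GATA6 was 1.98, and GATA4 ran from 2.42 to 2.98 without 1 embryo (lost without day 16 replicate 2). GATA4 in L-Gast2 minus postL-EPI ran from 3.09 to 4.42. The EXMC slope of GATA3 was -0.16 with at least 10 cells (adjusted p = 0.338), -0.21 without day 16 and -0.34 to -0.22 without 1 embryo. That of GATA4 was -0.21 with developmental stage labels alone (adjusted p = 0.105) and -0.30 to -0.24 without 1 embryo. Calls were gained by DESeq2 for GATA3 in L-AM2 minus L-AM1 (2.44) and, for GATA4 in VE/YE minus EXMC, with DESeq2 size factors (1.31), no filter (1.06), DESeq2 (1.29), no embryo block (1.19) and in 1 of 20 fits without 1 embryo (0.84 to 1.25, gained without day 14 replicate 4). For values outside the main questions, 11 alternatives ended a call and 12 made one. The cause was not tested, except that a higher minimum of cells or fewer days leaves fewer sums.

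Thinning moved the share of cells with a GATA3 count in AM to 73.3%, with GATA4 in VE/YE to 87.0% and in EXMC to 58.1%, with GATA6 in EXMC to 72.3%, and with both in EXMC to 42.7%. GATA3 in EPI was 24.9 CPM when each cell had equal weight.

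Replicate numbers only name embryos, as each embryo was collected on 1 day, and they pair nothing. With the replicate block the EXMC slopes were -0.25 for GATA3 (adjusted p = 0.0661), -0.33 for GATA4 and -0.05 for GATA6, GATA3 in whole embryos had -0.46, and GATA4 in TE changed sign to 0.15. The block moved genes called from 1303 to 1101 in EXMC and from 3488 to 3257 in whole embryos.

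Counts of genes called depended more on the settings: 7180 in TE minus EPI (1128 to 7448 over alternatives), 973 in AM minus EPI (273 to 1815), 5249 in EXMC minus EPI (1425 to 5712), 4315 in VE/YE minus EPI (1559 to 5584), 301 in Gast minus EPI (3 to 684), 264 in L-Gast2 minus L-Gast1 (202 to 889) and 1303 in the EXMC trend (586 to 2732). TE minus EXMC, TE minus VE/YE and AM minus EXMC were not run without single embryos, nor the embryo with 1 sum in fits with the embryo block. Fits between families without 1 embryo kept the dispersion trend of all embryos.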

Other observations

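The genes most like each member were ranked by Pearson's r of log2(CPM + 1) over the 73 embryo and family sums, among 20162 genes. The sums share embryos and libraries, so r is a description with no p. GATA3 was followed most closely by GRHL1 (0.796), a grainyhead factor, TET2 (0.782), a DNA demethylating enzyme, KRT8 (0.776), a keratin, PKIB (0.775), a protein kinase A inhibitor, and TFAP2A (0.772). GATA4 was followed by TMEM88 (0.824), a membrane protein, CDH2 (0.799), the N-cadherin, S100A10 (0.783), PRSS35 (0.774) and FRMD4B (0.773), with GATA6 at rank 11 (0.756). GATA6 was followed by BMP2 (0.781), a secreted growth factor, PDGFRA (0.771), GATA4 (0.756), LOC102120093 (0.754) and PLTP (0.752), a phospholipid transfer protein. GATA3 had an r of -0.131 with GATA4 and 0.065 with GATA6.

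Of 10 other GATA family members and cofactors, 4 were called in TE against EPI, where 35.6% of all genes were called. There 2 rose, among them GATA2 (4.30 ± 0.50, adjusted p = 1.91e-09), and 2 fell, among them TRPS1 (-3.45 ± 0.59, adjusted p = 2.21e-06) and GATA5 (-2.79 ± 1.01, adjusted p = 0.0245). TE against AM gave GATA5 at -6.35 ± 1.42 (adjusted p = 9.52e-04) and TRPS1 at -3.96 ± 0.74 (adjusted p = 7.29e-05), both lower in TE. Of 10 trophoblast products, 9 rose in TE against EPI and none fell (median 3.04 beside -0.13 for all genes), while in AM 2 rose, the keratins KRT18 (4.39) and KRT8 (3.56), and SDC1 fell (-2.97). Of 5 pluripotency factors tested, all 5 fell in TE against EPI, led by SOX2 (-5.79), and 4 of 5 fell in EXMC. Of 8 BMP response genes 4 rose in TE, led by MSX2 (3.25), and 3 in AM, led by ID2 (3.02), against EPI, and none fell in either.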
